A study of Mus musculus with 28 samples.

Results

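Activator protein 1 (AP-1) and immediate early genes were described in the liver of mice overexpressing SIRT6, through the 10 genes Jun, Junb, Jund, Fos, Fosb, Fosl2, Atf3, Egr1, Klf6, and Ier2. They were chosen by name from the 49585 genes of the count table, as genes of a pathway that SIRT6 is known to restrain. Earlier results of these data were known at that choice, so counts of calls among the 10 are not independent evidence. All 10 were found and were abundant enough to be tested. RNA was sequenced from whole liver of C57BL/6JOlaHsd mice in 4 groups of 7 animals, namely wild-type (WT) and SIRT6-transgenic (tg) males, and WT and SIRT6-tg females. The labels give an age of 5 to 7 months for every mouse, and the study's methods give a 4 h fast before RNA collection. All SIRT6-tg mice came from a single transgenic line that had been backcrossed to this strain, so an effect of the transgene and an effect of its insertion site cannot be told apart. The comparisons ask whether raised SIRT6 goes with another level of these transcripts in males and in females, and whether the sexes differ.

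AP-1 is a dimer of basic leucine zipper (bZIP) proteins. Jun proteins (c-JUN, JUNB, JUND) pair with each other or with Fos proteins (c-FOS, FOSB, FOSL2), whereas Fos proteins need a partner. ATF3 is a stress-induced member of the same superfamily, EGR1 and KLF6 are zinc finger factors, and IER2 is a small nuclear protein. Most of these genes are transcribed within minutes of a growth factor, cytokine, or stress signal, through MAP kinases and without new protein synthesis, and their transcripts are short-lived. In the liver they are known for their rise after partial hepatectomy and tissue injury, and handling or anaesthesia of the animal can also induce them. SIRT6 is a chromatin deacetylase that is known to bind c-JUN and to repress genes that c-JUN activates.

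The libraries held 18758863 to 35393069 counted reads, and levels are given as CPM, counts relative to the TMM-scaled size of the library. Sirt6, the gene carried by the transgene, matched the labels of all 28 libraries. It lay between 1.69 and 3.24 CPM in male WT and between 198 and 358 CPM in male SIRT6-tg mice, and between 1.80 and 6.22 CPM in female WT and between 16.4 and 50.2 CPM in female SIRT6-tg mice. The groups did not overlap in either sex, and the log2 rise was 6.68 in males and 3.39 in females, with a difference of 3.29 (SE 0.35, edgeR quasi-likelihood test, adjusted p = 6.96e-06). The strength of overexpression therefore differed with sex, and the effect of the dose of SIRT6 and that of sex cannot be told apart in what follows. The liver marker albumin (Alb) averaged 81115 CPM ± 12795 (SD, n = 7) in male WT mice. Labels name no batch.

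The Jun family was the abundant side of AP-1 in all groups. Levels per kilobase of exon (RPKM) divide by all annotated exons of a gene, and ranks, sums, and shares across genes depend on this length. Junb, for instance, has 2301 bases of exon in all but 1809 in its longest coding transcript. The summed level of Jun, Junb, and Jund had a median of 68.1 RPKM in WT and 61.3 RPKM in SIRT6-tg males. In females it was 38.5 RPKM in WT and 36.5 RPKM in SIRT6-tg mice. The summed level of Fos, Fosb, and Fosl2 had medians of 2.02, 1.25, 1.69, and 1.37 RPKM in the same order. The ratio of both sums lay between 15.6 and 94.0 over the 28 livers. Junb made up a larger share of the Jun family sum in WT females than in WT males, with a median of 59.6% in female WT against 40.4% in male WT mice, and the ranges of these groups, 51.2% to 61.3% and 32.9% to 42.2%, did not overlap. The share of Jun was lower in female WT (6.77% to 17.02%) than in most male WT mice (15.9% to 26.5%). In SIRT6-tg mice both shares overlapped between the sexes, with Junb at 45.9% to 70.5% in females and 33.5% to 53.6% in males, and Jun at 7.17% to 16.6% and 7.90% to 24.8%.

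In male WT livers the genes ranked from Jund (median 25.4 RPKM), Junb (23.5), Ier2 (21.5), Jun (12.5), Klf6 (7.504), Egr1 (5.14), and Atf3 (2.88 RPKM) to Fosl2 (1.06), Fos (0.906), and Fosb (0.0540 RPKM). Neighbours in this order overlapped in their ranges over the 7 mice, apart from Fos and Fosb, whose ranges were 0.598 to 1.15 and 0.0238 to 0.160 RPKM. Fosb was thus the only one of the 10 that stood apart from its neighbour, and its level rests on few reads, with a median count of 8 in male WT and of 2 in male SIRT6-tg libraries. Male SIRT6-tg replicate 7 held no Fosb read, which allows up to 3.

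**Figure D1:**
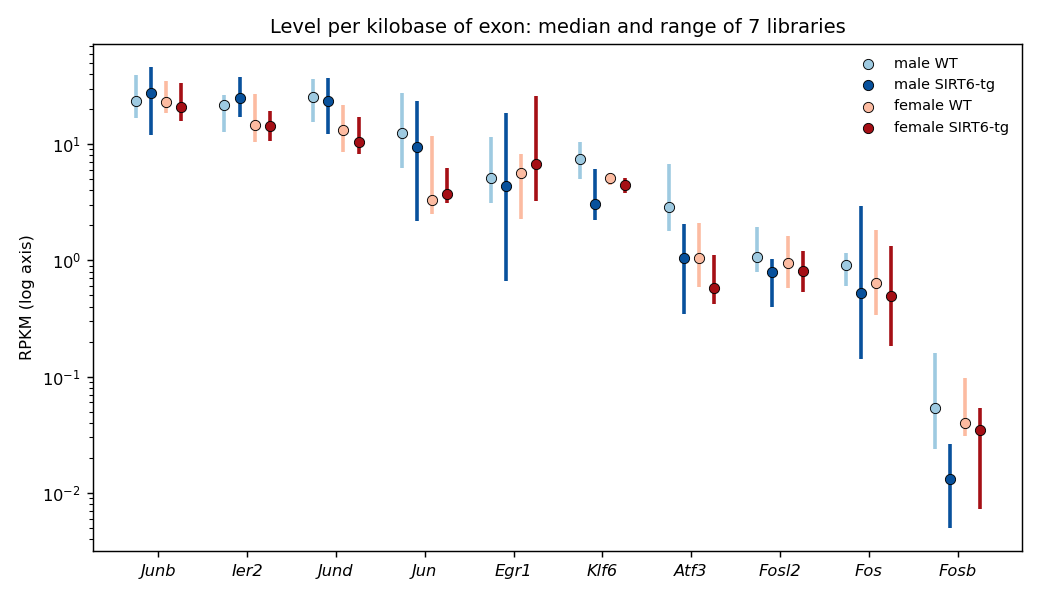
Levels of the 10 genes per kilobase of exon (RPKM, log axis), with a point at the median and a line over the range of the 7 libraries of each group. Junb, Jund, and Ier2 lie highest and Fosb lowest in all groups, Jun lies below Egr1 and Klf6 in both female groups, and the Fosb line of male SIRT6-tg mice stops short of its lowest library, which had a count of 0.

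Jun, which encodes c-JUN (chr4:95049034-95052222, minus strand, GRCm38, 1 exon), was measured at 19.9 to 86.9 CPM in male WT (median 39.9) and at 7.02 to 74.2 CPM in male SIRT6-tg mice (median 30.3). It ranged from 8.03 to 37.1 CPM in female WT (median 10.5) and from 9.87 to 19.9 CPM in female SIRT6-tg mice (median 11.8). The genotypes overlapped in both sexes, while male medians lay above female medians. Junb (chr8:84974484-84978718, minus strand), which often opposes c-JUN, had medians of 54.0, 63.8, 52.8, and 48.1 CPM in WT males, SIRT6-tg males, WT females, and SIRT6-tg females, and its lowest and highest libraries, at 27.3 and 106 CPM, were both male SIRT6-tg. Jund (chr8:70698949-70700616, plus strand), the member with the most constant expression in resting cells, had medians of 42.4, 39.3, 22.1, and 17.3 CPM. For these genes the groups overlapped as well. Each of the 3 Jun genes shares its position with a gene on the opposite strand (Junos at Jun, Prdx2 at Junb, and Gm11175 at Jund), and the library kit does not mark strand, so reads of a pair cannot be told apart. Junos was counted at 0.138 to 0.990 CPM over all libraries and Prdx2, which has its own exons, at 64.8 to 261 CPM.

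Fos (chr12:85473890-85477273, plus strand, 4 exons), which encodes c-FOS, ranged from 1.41 to 2.70 CPM in male WT (median 2.13) and from 0.333 to 6.95 CPM in male SIRT6-tg mice (median 1.22). In this group 5 of 7 mice lay below all WT males and 1 lay above them all. In females the range was 0.793 to 4.29 CPM in WT (median 1.498) and 0.434 to 3.10 CPM in SIRT6-tg mice (median 1.17). Fosl2 (chr5:32135801-32157842, plus strand), a more slowly induced Fos protein, had medians of 10.3 and 7.73 CPM in WT and SIRT6-tg males and of 9.23 and 7.83 CPM in WT and SIRT6-tg females, and 4 of 7 SIRT6-tg males were below every WT male.

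Ier2 (chr8:84661331-84662852, minus strand, 1 exon) ranged from 19.4 to 40.3 CPM in male WT (median 32.8) and from 25.8 to 56.9 CPM in male SIRT6-tg mice (median 37.6), with 3 of 7 SIRT6-tg males above all WT males. In females it had medians of 22.03 and 21.8 CPM in WT and SIRT6-tg mice. Among the 9 genes with reads in every library Egr1 had the widest range, 39.3-fold between its lowest library (male SIRT6-tg replicate 3, 2.97 CPM) and its highest (female SIRT6-tg replicate 5, 117 CPM). Its medians in WT males, SIRT6-tg males, WT females, and SIRT6-tg females were 23.04, 19.5, 25.2, and 30.4 CPM, and its groups overlapped throughout.

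**Figure D2:**
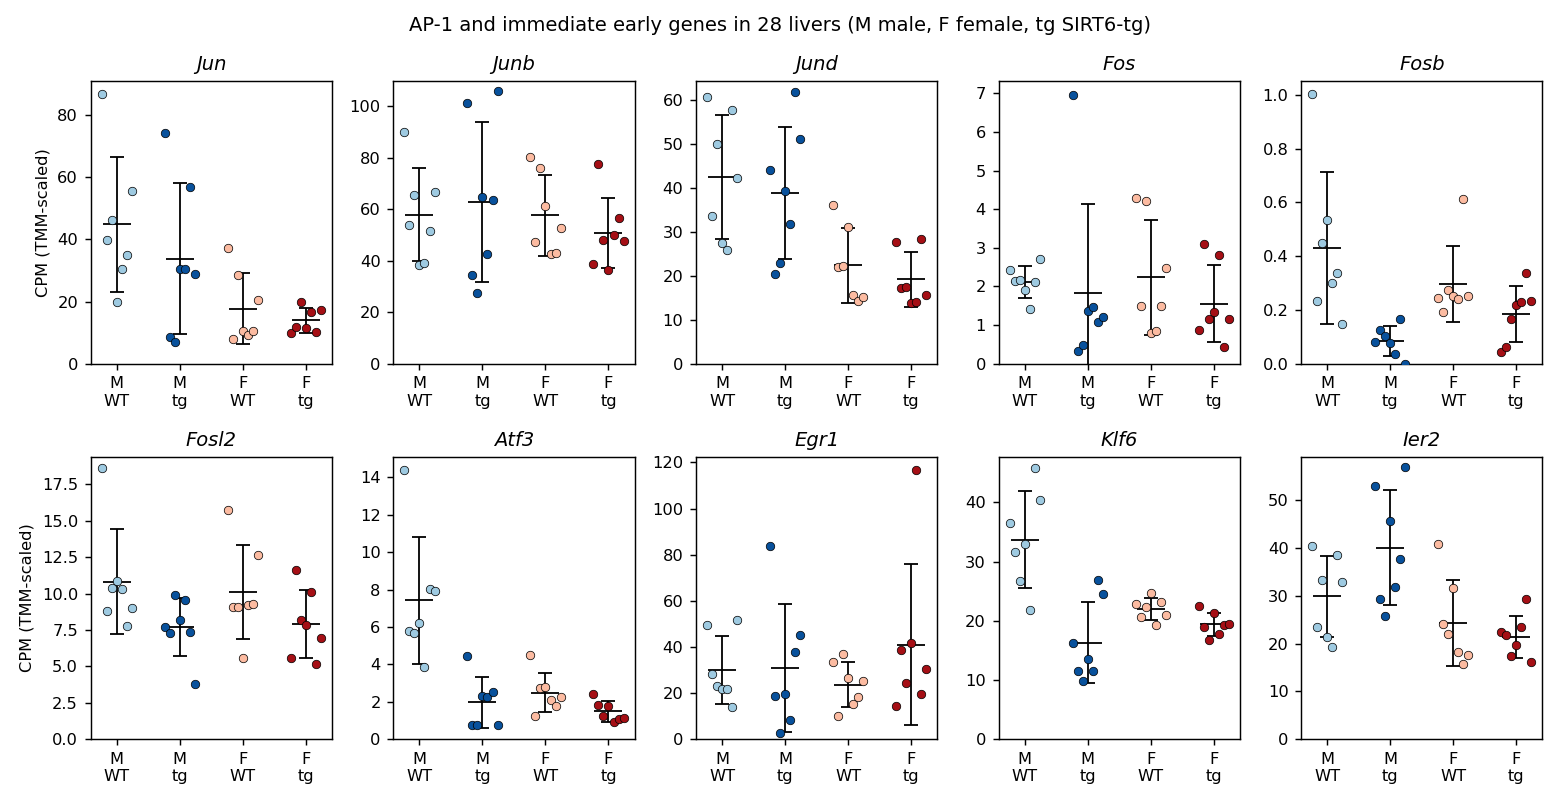
Level of each of the 10 genes (CPM, TMM-scaled) in the 28 livers, where a point is a mouse, the long bar the group mean, and the whisker the SD (cut at 0). SIRT6-tg males below every WT male number 6 of 7 for Fosb and Atf3, 5 of 7 for Klf6 and Fos, and 4 of 7 for Fosl2. For Fos, 1 SIRT6-tg male also lies above all WT males. The genotypes overlap for all 10 genes in both sexes.

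In males, Atf3, Fosb, and Klf6 fell with the SIRT6 transgene, and none of the 10 genes rose. These 3 of 10 stand beside a background of 11% of the 21583 tested genes that were lower and 9.68% that were higher in male SIRT6-tg mice (edgeR, adjusted p under 0.05), or 20.7% in either direction. Higher genes made up 46.8% of these calls with TMM, 35.7% with RLE size factors, 26.2% with upper-quartile scaling, and 4.89% with library size alone. Over the 10 genes the log2 fold change had a median of −0.31, and over all genes tested of 0.056. No gene of the 10 had groups that did not overlap, which was seen for 4.37% of all genes in the lower direction and 2.6% in the higher direction. The TMM factors, which follow the composition of a library, did not overlap between the male genotypes (1.06 to 1.17 in WT and 0.821 to 0.993 in SIRT6-tg mice), and mitochondrial genes held 2.86% to 4.84% of reads in male WT and 4.49% to 5.79% in male SIRT6-tg libraries. In females the factors were 0.908 to 1.02 and 0.906 to 1.06, and the mitochondrial shares 4.23% to 6.32% and 5.55% to 6.58%. The part of library composition and RNA quality in the lower levels of the 3 genes was not tested.

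Atf3 (chr1:191170296-191218039, minus strand), induced by many kinds of cell stress, ranged from 3.87 to 14.4 CPM in male WT (median 6.204) and from 0.749 to 4.44 CPM in male SIRT6-tg mice (median 2.25). Of the SIRT6-tg males, 6 of 7 lay below every WT male. The log2 fold change was −1.91 (SE 0.34, edgeR, adjusted p = 1.31e-04), a 3.75-fold lower level. Klf6 (chr13:5861482-5870394, plus strand), an activator of matrix and growth control genes, ranged from 21.8 to 45.9 CPM in male WT (median 32.95) and from 9.78 to 26.9 CPM in male SIRT6-tg mice (median 13.5), and 5 of 7 SIRT6-tg males lay below every WT male. It fell by 1.05 on the log2 scale (SE 0.18, edgeR, adjusted p = 5.28e-05). Fosb (chr7:19302696-19310051, minus strand) ranged from 0.149 to 1.00 CPM in male WT (median 0.337) and from 0 to 0.165 CPM in male SIRT6-tg mice (median 0.0822), and 6 of 7 SIRT6-tg males lay below every WT male. Its log2 fold change was −2.26 (SE 0.46, edgeR, adjusted p = 5.42e-04), from counts of 6 to 34 in WT and 0 to 4 in SIRT6-tg libraries. All 3 calls held with each male library left out in turn, whereas a stricter minimum count removed Fosb from the genes tested.

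The other 7 genes did not pass the test in males. Jun, the partner of SIRT6 that prompted the choice of genes, had a log2 fold change of −0.41 with a 95% interval from −1.29 to 0.47 (edgeR, adjusted p = 0.554), which takes in values on both sides of 0. Single livers moved the Jun value, to −0.73 without male SIRT6-tg replicate 1 and to −0.19 without male WT replicate 1, and it passed in none of the 14 fits without 1 library. Fosl2 had −0.49 (SE 0.22, edgeR, unadjusted p = 0.0304, adjusted p = 0.109). Ier2 had 0.42 (SE 0.21, edgeR, adjusted p = 0.160). The log2 fold change of Jund was −0.14 and that of Fos −0.21, and the Fos value rests on 1 liver, since without male SIRT6-tg replicate 1 it was −1.11 (edgeR, adjusted p = 0.0632). Junb (0.12) and Egr1 (0.036) changed sign with the scaling of the libraries, to −0.18 and −0.25 when library size alone was used, a setting that moved the median of all genes to −0.22. Relative to the median of all genes the values under library size alone were 0.035 for Junb and −0.035 for Egr1, against 0.061 and −0.020 with TMM. Relative to the same median, Atf3 was at −1.96, Fosb at −2.32, and Klf6 at −1.11 with TMM, and at −1.95, −2.31, and −1.14 with library size alone.

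In females none of the 10 genes passed the test with edgeR or with DESeq2, beside 0.0278% of all genes tested, or 6 genes, with edgeR. At an unadjusted p under 0.05 there was 1 of the 10, against 5.62% of all genes. That gene was Atf3, which ranged from 1.27 to 4.50 CPM in female WT (median 2.27) and from 0.914 to 2.40 CPM in female SIRT6-tg mice (median 1.25), with 4 of 7 SIRT6-tg females below every WT female and a log2 fold change of −0.74 (SE 0.35, edgeR, adjusted p = 0.876). Klf6 was tightly grouped in females, at 19.4 to 24.8 CPM in WT and 16.7 to 22.5 CPM in SIRT6-tg mice, and its log2 fold change was −0.18 with a 95% interval from −0.54 to 0.18. Fosb had −0.69 (95% interval −1.57 to 0.19), with counts of 5 to 16 in WT and 1 to 7 in SIRT6-tg libraries. The values were −0.35 for Jun, −0.18 for Junb, −0.22 for Jund, −0.51 for Fos, −0.34 for Fosl2, and −0.18 for Ier2. Egr1 had the highest value, 0.79 (95% interval −0.28 to 1.85), which was 0.25 without female SIRT6-tg replicate 5. The median over the 10 genes was −0.28, and over all genes 0.0026.

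**Figure D3:**
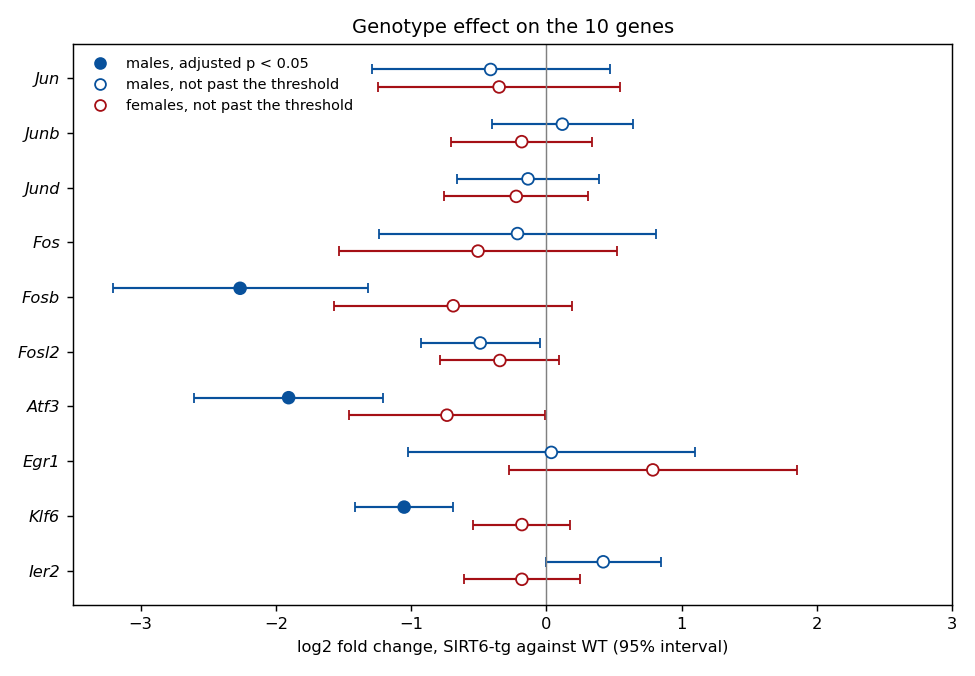
Log2 fold change of SIRT6-tg against WT mice for each of the 10 genes, with 95% intervals, in males (blue) and females (red), where filled points are past the adjusted threshold of 0.05. Atf3, Fosb, and Klf6 are filled in males and no point is filled in females, and the male values of Junb and Egr1, close to 0, changed sign with the scaling.

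Of the 10 genes, Klf6 passed the test of a difference between the male and the female response, and with the replicate number as a block Atf3 passed as well (edgeR, adjusted p = 0.0430). The fall of Klf6 was larger in males by 0.87 on the log2 scale (SE 0.25, edgeR, adjusted p = 0.0352), beside 5.05% of all genes called in either direction and 3.84% in this direction. This call lies near the threshold, and it was lost in 9 of 28 fits that left out 1 library, namely male WT replicate 6, male SIRT6-tg replicates 2, 3, 4, and 5, female WT replicates 2 and 5, and female SIRT6-tg replicates 1 and 4, with an adjusted p of up to 0.0614 (edgeR). Fosb (−1.58, SE 0.64, edgeR, adjusted p = 0.166) and Atf3 (−1.17, SE 0.49, edgeR, adjusted p = 0.181) did not pass without the block. Ier2 had 0.60 (SE 0.30, edgeR, adjusted p = 0.270). The differences for Jun, Junb, Jund, Fos, Fosl2, and Egr1 lay between −0.75 and 0.30, and those of Junb, Jund, and Fos changed sign when library size alone was used, a setting that moved the median of all genes to −0.25. Relative to that median they kept their sign, at 0.24 for Junb, 0.038 for Jund, and 0.25 for Fos, against 0.27, 0.053, and 0.26 with TMM.

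In WT livers, Atf3, Jun, Jund, and Klf6 were higher in males than in females. These 4 of 10 stand beside 6.65% of all genes higher and 5.71% lower in male WT mice, or 12.4% in either direction. Atf3 differed most, with 6 of 7 WT males above every WT female and a log2 difference of 1.58 (SE 0.33, edgeR, adjusted p = 0.00164). For Klf6, 6 of 7 WT males also lay above every WT female, and the difference was 0.61 (SE 0.18, edgeR, adjusted p = 0.0180). Jund differed by 0.93 (SE 0.26, edgeR, adjusted p = 0.0165), with 4 of 7 WT males above all WT females. Jun differed by 1.34 (SE 0.44, edgeR, adjusted p = 0.0428), a call that was lost in 9 of 14 fits without 1 library (male WT replicates 1, 3, 6, and 7 and female WT replicates 2, 4, 5, 6, and 7), with adjusted p up to 0.0975. Fosb (0.54), Egr1 (0.34), Ier2 (0.30), and Fosl2 (0.10) did not pass, and Fos (−0.075) and Junb (0.0087) were close to 0 and changed sign with the scaling, though not relative to the median of all genes.

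Between the SIRT6-tg groups, a comparison added after the data had been examined, Ier2, Jund, and Jun were higher in males, beside 12.9% of all genes higher, 10.2% lower, and 23.1% in either direction. Ier2 differed by 0.90 (SE 0.21, edgeR, adjusted p = 0.00251), with 6 of 7 SIRT6-tg males above every SIRT6-tg female. Jund differed by 1.02 (SE 0.26, edgeR, adjusted p = 0.00553), and Jun by 1.28 (SE 0.44, edgeR, adjusted p = 0.0362), a call lost without any of 6 libraries (male SIRT6-tg replicates 1 and 6 and female SIRT6-tg replicates 1, 2, 4, and 6). Atf3 and Klf6 did not pass here, with log2 differences of 0.41 (95% interval −0.32 to 1.14) and −0.26 (95% interval −0.62 to 0.10). Fosb had −1.04 (95% interval −2.09 to 0.011, edgeR, unadjusted p = 0.0523, adjusted p = 0.146), the lowest value of the 10. Egr1 (−0.41), Junb (0.31), Fos (0.22), and Fosl2 (−0.043) did not pass either. Both comparisons between the sexes share their libraries with the genotype comparisons, so their values stand side by side and are not independent.

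Whole liver holds several cell types, and fewer cells of a type and less RNA per cell cannot be told apart in these data. In males, markers of macrophages, T cells, B cells, and stellate cells moved with the genotype, beside the 11% of all genes that were lower and 9.68% that were higher. All 14 tested markers of macrophages and Kupffer cells were lower in male SIRT6-tg mice, and their summed level ranged from 637 to 2006 CPM in male WT and from 511 to 862 CPM in male SIRT6-tg mice. All 12 T cell markers were lower, with summed levels of 21.9 to 67.0 CPM and 6.37 to 11.3 CPM, as were 8 of 10 markers of stellate cells and fibroblasts (441 to 690 and 319 to 429 CPM) and 4 of 8 B cell markers (11.998 to 19.7 and 6.33 to 12.6 CPM). Near the share of all genes were 1 of 7 neutrophil markers (5.42 to 18.9 and 3.42 to 13.8 CPM) and 1 of 10 markers of sinusoidal endothelium (314 to 422 and 299 to 384 CPM) that were lower. Of 12 hepatocyte markers 4 were higher (112236 to 151306 and 137597 to 189305 CPM), as was 1 of 7 red blood cell markers (202 to 504 and 186 to 733 CPM), and none of 8 cholangiocyte markers passed (40.9 to 61.7 and 34.8 to 61.6 CPM, with 1 at an unadjusted p under 0.05 in edgeR and none in DESeq2). The higher hepatocyte and red blood cell calls were absent when library size alone was used. Among the defining markers, Cd3e of T cells had a log2 fold change of −2.56, Adgre1 of macrophages −1.28, Lrat of stellate cells −0.68, and Alb 0.35, whereas Stab2 of endothelium (−0.18) and Krt19 of cholangiocytes (−0.50) did not pass. No tested marker was at 0 in all libraries of a group, and 7 of 8 neutrophil markers were abundant enough to be tested. The part of these cells in the lower Atf3, Fosb, and Klf6 levels of SIRT6-tg males was not tested. In WT mice, where Atf3, Jun, Jund, and Klf6 were higher in males, 12 of 12 T cell markers and 2 of 14 macrophage markers were higher in males, beside 6.65% of all genes. So were 2 of 10 stellate cell and fibroblast markers and 1 of 7 red blood cell markers. Lower in WT males were 4 of 12 hepatocyte markers and 1 of 10 stellate cell and fibroblast markers, beside 5.71% of all genes. Between SIRT6-tg sexes, where Ier2, Jund, and Jun were higher in males, 5 of 14 macrophage and 6 of 10 stellate cell and fibroblast markers were lower in males. Lower too were 1 of 12 T cell, 1 of 12 hepatocyte, 1 of 7 neutrophil, and 1 of 10 endothelial markers, beside 10.2% of all genes. Higher were 1 of 12 hepatocyte and 1 of 7 red blood cell markers, beside 12.9%. The part of these cells in the sex differences was not tested either.

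The other genes of the pathway were read from lists chosen with earlier results of these data known. Of 20 other bZIP factors, 4 were lower and 2 higher in male SIRT6-tg mice, with none higher when library size alone was used, beside 11% of all genes lower and 9.68% higher, so the higher count lies at the background. Batf2, which pairs with Jun proteins in macrophages, averaged 2.08 CPM ± 0.83 in WT and 0.457 CPM ± 0.148 in SIRT6-tg males (SD, n = 7) without overlap, a log2 fold change of −2.18 (edgeR, adjusted p = 1.88e-06). Creb5, a cAMP response element binding factor, had −2.20 without overlap, and Batf, a lymphocyte partner of Jun proteins, had −1.77 with overlap. Of 32 other immediate early genes, 7 were lower and none higher, beside the same shares of all genes, with a median of −0.23 against 0.056 over all genes. The macrophage and Schwann cell factor Egr2 had −3.61 and the orphan nuclear receptor Nr4a3 had −2.53, both without overlap between the genotypes, and Ier5, a relative of Ier2, had −0.68.

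Upstream of AP-1, 2 of 19 MAP kinase inputs were lower and 2 higher in SIRT6-tg males, with none higher when library size alone was used, and both counts lie near the shares of all genes. Map3k8, a kinase activated in macrophages by inflammatory signals, had −0.70, and Map3k1, which feeds the JNK pathway toward c-JUN, had −0.54. Of 10 MAP kinase phosphatases, which switch these kinases off and are themselves induced early, 4 were lower and none higher. Over all genes, 11% were lower and 9.68% higher. The lower phosphatases included Dusp2 (−2.22, without overlap), Dusp5 (−1.06), and Dusp8 (−1.57). Of 20 insulin and IGF signalling genes, Igf1 was higher (0.33, without overlap, a call absent with upper-quartile scaling or library size alone).

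Of 17 genes known as AP-1 targets, 14 were lower in male SIRT6-tg mice and none was higher, beside 11% of all genes lower and 9.68% higher. Their median log2 fold change was −1.53, beside 0.056 over all genes. Mmp12, a macrophage elastase, fell from 12.1 CPM ± 7.8 to 0.392 CPM ± 0.084 (SD, n = 7), a log2 fold change of −4.94 (SE 0.52, edgeR, adjusted p = 1.05e-07). The dendritic cell and macrophage integrin Itgax had −3.09 and the gelatinase Mmp2 had −1.44, and the genotypes did not overlap for these 3 genes. Since the list was chosen with results of these livers known, its direction is not independent evidence, and many of its genes are expressed by the immune and stromal cells whose markers were lower. In females no gene of any of these lists passed with edgeR, and DESeq2 called Igf1 alone. An unadjusted p under 0.05 in edgeR was seen for 3 of the 17 targets, 5 of the 32 immediate early genes, and 2 of the 20 bZIP factors. It was also seen for 2 of the 20 insulin and IGF genes, 1 of the 10 phosphatases, and 0 of the 19 MAP kinase inputs, beside 5.62% of all genes. The phosphatase was Dusp8, with −1.55 in females (edgeR, unadjusted p = 0.00194, adjusted p = 0.397) and a sex difference of −0.026 (SE 0.84). The effect on 9 of the 17 targets differed between the sexes, all with the lower value in males, beside 3.84% of all genes in this direction.

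**Figure D4:**
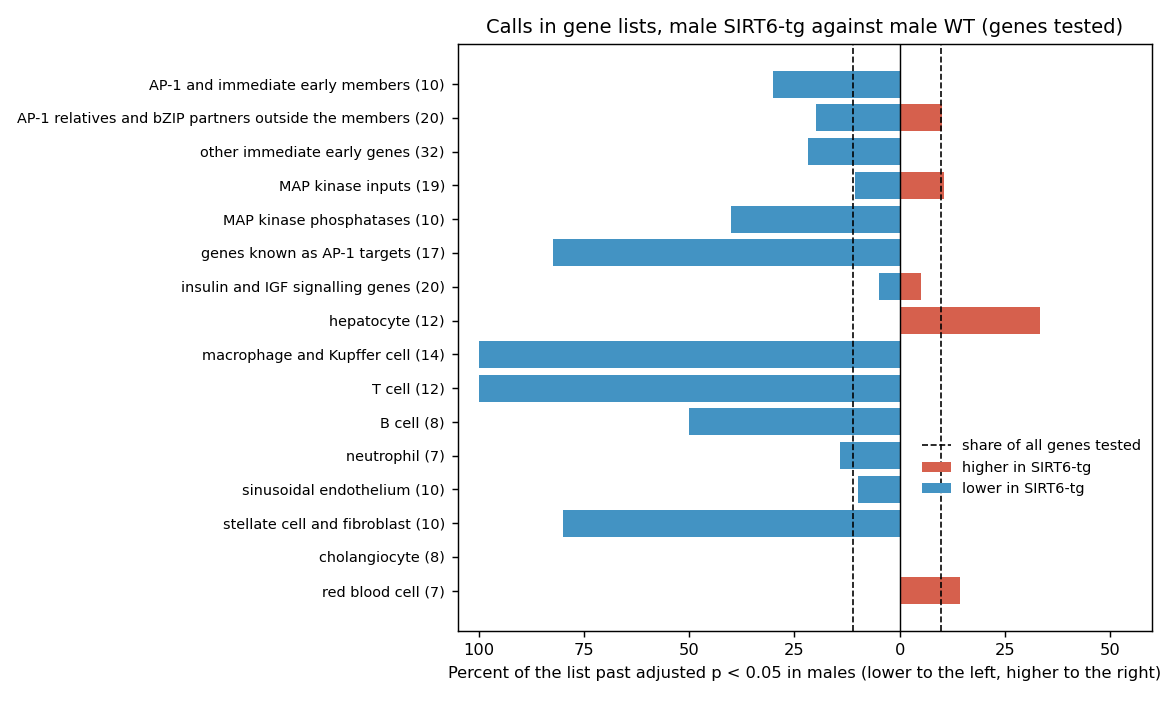
Percent of each gene list that was lower (blue, to the left) or higher (red, to the right) in male SIRT6-tg against male WT mice at an adjusted p under 0.05, with the number of genes tested in brackets. Dashed lines mark the shares over all tested genes, 11% lower and 9.68% higher, and the lists with a red bar held no higher gene when library size alone was used.

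Within groups some of the genes moved together from mouse to mouse. After each group's mean was taken from the log2 CPM values, 36 of 45 pairs of the 10 genes had a positive Pearson correlation over the 28 livers, and 17 passed a two-sided permutation test (100000 permutations within groups, Benjamini-Hochberg adjusted over the 45 pairs), all with positive values. Spearman's rho passed for 15 pairs, Pearson's r passed for 15 after the 2 livers farthest from the median of the first gene of the pair were left out, and 12 passed by all 3 measures. The other measures added 3 pairs that Pearson's r over all livers did not call, namely Fos with Fosl2 by rho and without 2 livers, Junb with Atf3 without 2 livers, and Fosl2 with Klf6 without 2 livers, the last with a negative value (r = −0.36, permutation adjusted p = 0.0106). The highest value was that of Jund with Ier2 (r = 0.85, rho = 0.86, permutation adjusted p = 4.5e-04 for both, the smallest that these permutations can give, and r = 0.83 without 2 livers). Jun went with Junb (r = 0.77, rho = 0.71, permutation adjusted p = 0.00101 and 0.00202, and 0.67 without 2 livers) and with Fos (r = 0.74, rho = 0.74, permutation adjusted p = 0.00101 and 0.00202, and 0.67 without 2 livers), and these pairs were positive in all 4 groups. The lowest group r was close to 0 for Jun with Junb, at 0.026, and was 0.35 for Jun with Fos. Jun took part in 6 of the 17 pairs called by Pearson's r over all livers, Junb, Jund, and Ier2 in 5 each, and Fosb and Fosl2 in none. Not every called pair was positive in each group. Jun with Jund, Atf3, and Ier2 was positive in 3 of the 4 groups, with a lowest group r of −0.62, −0.63, and −0.66. Fos with Atf3 and Atf3 with Ier2 were also positive in 3, with lowest values of −0.012 and −0.037. For the called pairs, livers thus tended to stand high or low for both genes at once. When and how each liver was collected is not in the labels, so the part of collection was not tested.

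**Figure D5:**
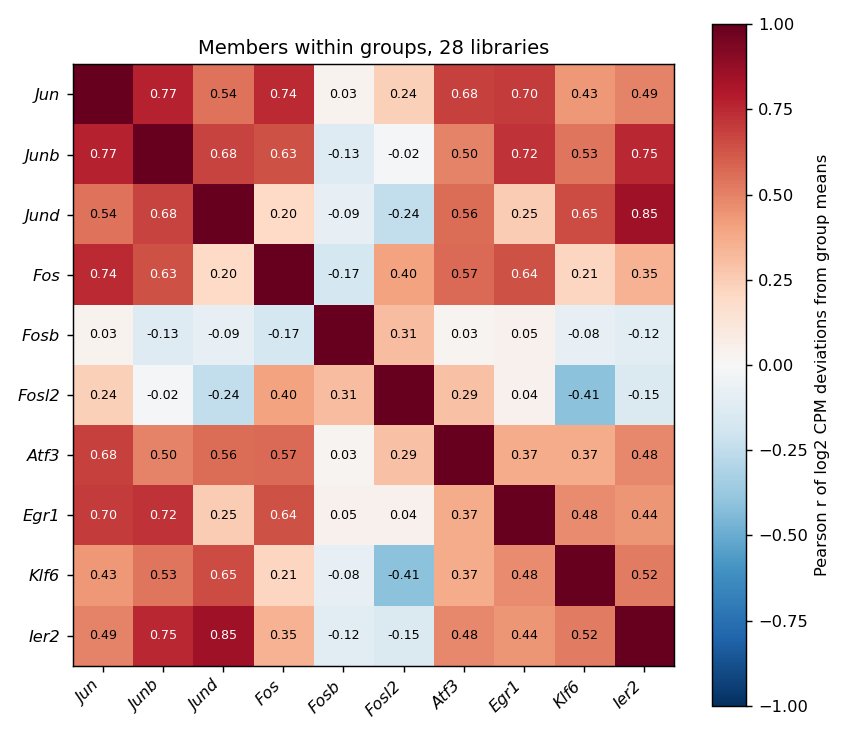
Pearson correlation between the 10 genes over 28 livers, from log2 CPM values with the group mean removed (colour scale from −1 to 1). Jun, Junb, Fos, and Egr1 are joined by values of 0.63 or more, Jund and Ier2 by 0.85, and values with Fosb stay between −0.17 and 0.31.

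Among all genes tested, the pattern most like that of Jun over the 28 livers was that of Ccn1, a matricellular immediate early gene (r = 0.80), followed by Junb and Fos. For Fos it was the MAP kinase phosphatase Dusp1 (r = 0.76), then Jun, then the antiproliferative gene Btg2 (r = 0.72). For Atf3 these were the stress response phosphatase subunit Ppp1r15a and the nuclear receptor Nr4a1 (r = 0.70 each), followed by Jun (r = 0.68).

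Gene structure is a further feature that these genes share in part. Jun, Junb, Jund, and Ier2 have 1 exon in their longest coding transcript, and the others have 2 to 4. The GC content of that transcript was 67.1% for Jund, 62.6% for Junb, and 60.9% for Ier2, above 99.8%, 98.6%, and 96.8% of 15506 tested coding genes, and the correlation of Jund with Ier2 was the highest of all pairs. Klf6, at 42.4%, was the lowest of the 10. The part of base composition in the shared variation was not tested.

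Promoter sequence was read for the 3 genes that fell in males and, for comparison, for Jun and Fos, which did not pass. Each line gives the 250 bases before the RefSeq transcription start on the gene's strand, 5′ to 3′ (GRCm38.p6), with matches to the searched motifs in capitals.
Atf3, chr1:191183334-191183583, minus strand: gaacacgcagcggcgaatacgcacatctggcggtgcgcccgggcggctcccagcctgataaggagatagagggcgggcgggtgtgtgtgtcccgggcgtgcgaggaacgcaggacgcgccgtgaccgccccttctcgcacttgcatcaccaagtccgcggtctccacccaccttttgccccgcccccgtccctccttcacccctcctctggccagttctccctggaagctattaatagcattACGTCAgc
Klf6, chr13:5861239-5861488, plus strand: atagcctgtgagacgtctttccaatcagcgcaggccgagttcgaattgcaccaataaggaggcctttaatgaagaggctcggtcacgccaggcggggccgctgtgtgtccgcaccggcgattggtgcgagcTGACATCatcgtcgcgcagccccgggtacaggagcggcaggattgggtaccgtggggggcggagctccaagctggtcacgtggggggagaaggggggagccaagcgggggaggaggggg
Fosb, chr7:19310046-19310295, minus strand: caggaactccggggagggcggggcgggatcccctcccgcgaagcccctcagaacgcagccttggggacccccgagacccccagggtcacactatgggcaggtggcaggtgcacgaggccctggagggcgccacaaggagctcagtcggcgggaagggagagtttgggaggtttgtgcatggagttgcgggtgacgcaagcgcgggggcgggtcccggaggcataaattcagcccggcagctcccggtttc
Jun, chr4:95052223-95052472, minus strand: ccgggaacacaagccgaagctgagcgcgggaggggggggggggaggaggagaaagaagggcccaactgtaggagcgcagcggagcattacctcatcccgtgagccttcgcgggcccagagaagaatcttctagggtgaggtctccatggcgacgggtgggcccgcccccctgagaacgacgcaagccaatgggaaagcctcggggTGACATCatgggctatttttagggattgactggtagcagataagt
Fos, chr12:85473640-85473889, plus strand: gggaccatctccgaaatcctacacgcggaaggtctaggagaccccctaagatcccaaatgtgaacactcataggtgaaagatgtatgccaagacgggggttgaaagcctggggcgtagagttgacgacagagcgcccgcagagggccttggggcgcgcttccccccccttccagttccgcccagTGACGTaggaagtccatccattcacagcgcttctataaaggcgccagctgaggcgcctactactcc

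An entry was found for 8 of the 10 genes. The windows follow RefSeq starts, which differ from the Gencode gene ends for some genes. The Jund window ends at chr8:70697738, upstream of the Gencode start at 70698949. The windows of Atf3 and Fosl2 (chr5:32136222-32136471) lie inside the Gencode genes, so bases before other starts of these genes were not searched. The AP-1 site TGAGTCA, searched on both strands as were all motifs, was in none of the 8 windows and in 4.46% of 32851 mouse promoters of the same length. The core of the cAMP response element, TGACGT, was found in Fos, starting 66 bases before the transcription start, and in Atf3 on the opposite strand (printed as its reverse complement), starting 8 bases before it, and 6.47% of promoters hold it. The CArG box of serum response elements was in none of the 8 windows and in 1.47% of promoters. Bases farther upstream were not searched, and Egr1 and Ier2 had no entry, so these genes may hold the box elsewhere. The AP-1-like site TGACATC, added after these sequences had been seen, was found in Jun at 45 and in Klf6 at 119 bases before the start, and in 4.83% of promoters. Fosb held none of these motifs in this window. These matches describe the letters of the windows, and the genes that fell in males did not share a motif among those searched.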

How the data were processed

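Libraries were prepared from liver RNA with a NEBNext Ultra kit and sequenced as single-end reads. The authors used STAR 2.5.0a for alignment against mm10 and HTSeq-count for unique reads on Gencode genes, without a stated strand setting, and deposited raw counts per gene for 28 libraries (submitters' processing notes and the study's methods). Reads of the transgene and of endogenous Sirt6 are counted together. Gene models came from Gencode vM21 on the same build.

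Tested were the 21583 of 49585 genes whose size-factor-scaled count averaged at least 0.5. Counts were normalized by TMM and all 4 groups entered 1 robust quasi-likelihood fit in edgeR 4.0.16 (F-test, R 4.3.3), Benjamini-Hochberg adjusted over all genes, with calls at 0.05. DESeq2 1.42.0, other scalings and filters, fits with only the compared groups, the replicate number as a block, and each library left out were the alternatives. Totals were 18758863 to 35393069 per library. Depth limits Fosb most among the 10 genes, and a count of 0 allows up to 3 at the 95% level, for counting error only. Libraries are separate mice, and none were duplicates by a chi-square test of their counts. Scripts were tested on simulated data.

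The 10 genes and all lists were chosen with earlier results of these data known. Named beside them were Sirt6, the 3 genes of each list with the lowest adjusted p among those called in males, defining cell markers, and the 3 genes most correlated with Jun, Fos, and Atf3. Some genes that this rule names are not reported here. The list gene Ahsp was not found. The promoter motif TGACATC and the comparison of SIRT6-tg males with SIRT6-tg females were added after seeing the data.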

Additional observations from a re-analysis of the deposited data

Results flagged for a closer look

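Of 44 groups of 7 libraries (the 10 genes and Sirt6 in 4 groups each), 8 had a library that stood apart by Dixon's criterion. Its nominal rate of about 1 in 20 is for normally distributed values and separate tests. The criterion was applied to CPM without a log scale, and the groups share libraries and correlated genes. The count can therefore not be read as an excess. Male WT replicate 1 was the highest of its group for Atf3 (14.4 CPM) and for Fosl2 (18.6 CPM). Fosl2 also had a low library in male SIRT6-tg mice (replicate 7, 3.82 CPM), which lay at the cutoff of 0.568. Fos stood apart in male SIRT6-tg replicate 1 (6.95 CPM), Fosb in female WT replicate 6 (0.613 CPM), and Egr1 in female SIRT6-tg replicate 5 (117 CPM). Sirt6 stood apart as the lowest male WT library (replicate 6, 1.69 CPM) and the highest female WT library (replicate 1, 6.22 CPM), both far below the SIRT6-tg mice of the same sex.

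The genotype effect differed between the sexes by the interaction test of edgeR (adjusted p under 0.05) for Klf6 (−0.87 on the log2 scale, male minus female effect) and for Sirt6 itself (3.29). Among other named genes it differed for the bZIP factors Batf2 (−2.01) and Creb5 (−2.22), the immediate early gene Egr2 (−2.86), the phosphatase Dusp2 (−1.70), the AP-1 targets Itgax (−2.56), Mmp12 (−4.04), and Mmp2 (−1.33), and the T cell marker Cd3e (−2.27). Each of these but Sirt6 had the lower value in males. Over all genes tested, 5.05% were called in either direction and 3.84% in this direction. The list genes among them were named for their low adjusted p in males, so this direction follows in part from the choice.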

How the results depend on the processing

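The calls for Atf3 and Klf6 in males held in every alternative, and that for Fosb in all but the stricter filter, which did not test it. With library size alone Fosl2 passed as well. The higher Jun of males was lost in WT mice without a filter on low counts, and in SIRT6-tg mice without that filter, with library size alone, with only the compared groups in the fit, and with the replicate block. Differences between the sexes numbered 1863 genes with library size alone, and male against female WT 4212. Genes called in females numbered 2 with only the compared groups in the fit and 44 by DESeq2, 24 of them higher. Higher genes made up 23.9% of the sex-difference calls with TMM and 1.40% with library size alone, 53.8% and 86.8% between WT males and females, and 55.9% and 39.01% between SIRT6-tg males and females. Values near 0 changed sign. For Egr1 in males it was −0.0015 with RLE size factors, −0.035 with upper-quartile scaling, and −0.25 with library size alone. With library size alone Junb was at −0.18 in males and −0.014 in the sex difference, Jund at −0.22 and Fos at −0.0072 in the sex difference, and Fos at 0.12 between WT sexes, where Junb was at −0.0019 with upper-quartile scaling. Relative to the median of all genes, which library size alone moved to −0.25 in the sex difference and to 0.19 between WT sexes, none of these values differed in sign from TMM. The cause of the lost Jun calls was not tested.

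Replicate numbers gave no sign of pairing the mice. The correlation of deviations between same-numbered livers was above 0.1 in 2 of 7 male and 3 of 7 female pairs, and 0 and 1 of 7 correlated best with their own number. By the study's methods, comparisons were among littermates and the genotypes shared cages. The labels name neither litter nor cage, so these did not enter the fit, and the check on replicate numbers cannot show whether they matter. With the replicate block, 4209 genes passed in males, 2 of the 10 genes (Atf3 and Klf6) passed in the sex difference, and these values changed sign: Egr1 in males −0.051, Fos −0.15 in the sex difference, 0.055 between WT sexes, and −0.099 between SIRT6-tg sexes, and Junb −0.022 between WT sexes.

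Leaving out each library in turn gave 3 to 16 genes in females and 0 to 1 of the 10 genes in the sex difference. Ranges that crossed 0 in males were −0.069 to 0.25 for Junb and −0.45 to 0.24 for Egr1. In the sex difference they were −0.38 to 0.16 for Jun, −0.072 to 0.20 for Jund, −0.60 to 0.56 for Fos, and −0.29 to 0.022 for Fosl2. Between WT sexes they were −0.11 to 0.12 for Junb, −0.22 to 0.17 for Fos, and −0.060 to 0.25 for Fosl2. Between SIRT6-tg sexes they were −0.68 to 0.48 for Fos, −0.12 to 0.074 for Fosl2, and −0.89 to 0.12 for Egr1. With 7 mice a group, the 95% intervals of Jun, Fos, and Egr1 reach beyond 1 on the log2 scale in at least 1 direction in both sexes.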
